A study of Mus musculus with 6 samples.

Results

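The genes described here encode receptors through which noradrenaline, acetylcholine and circulating or local peptides act on the heart: the adrenergic receptors Adrb1, Adra1a and Adra1b, the muscarinic receptor Chrm2, and the peptide receptors Agtr1a, Ednra, Ednrb, Rxfp1 and Aplnr. They were measured in heart RNA of 3 wild-type mice and 3 Cenpf knockout mice, all 12 months old, with 1 array per heart. No treatment is named for them. A gene was taken where the array annotation gave a probe that symbol alone, and with several probes the one of highest mean over the 6 arrays would have been used. The probes were thus chosen by mean level, and the gene list with the knockout difference of Rxfp1 already known. This gave 6 of the 9 listed genes, out of 19938 genes so named in the whole table: Adra1b, Chrm2, Agtr1a, Ednrb, Rxfp1 and Aplnr, each with 1 probe. Adrb1, Adra1a and Ednra were not analysed here. The labels do not say which part of Cenpf was deleted, in which cells, or the strain and sex of the mice, and the 3 hearts of a group are labelled biological replicates.

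All of these receptors span the membrane several times and signal through heterotrimeric G proteins. In general physiology, beta-adrenergic receptors couple to the stimulatory G protein and raise cyclic AMP, which speeds and strengthens the beat. The M2 muscarinic receptor couples to inhibitory G proteins and slows it, in part by opening the potassium channel built from Kcnj3 and Kcnj5. Alpha-1 adrenergic, angiotensin II and endothelin receptors mainly activate phospholipase C through Gq. The relaxin receptor can raise cyclic AMP, and the apelin receptor couples mainly to inhibitory G proteins.

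Values are deposited log2 probe values, so a difference of 1 is a doubling. A background level of 6.35 was drawn from 1212 probes of odorant and pheromone receptors, which heart is assumed not to express: 95% of them had a mean below it. Signal depends on the probe as well as on the transcript, so levels of different genes are not set against each other. Ventricular muscle markers were present, as the label of heart requires: all 6 lay above the background level, with Myl2, the ventricular regulatory light chain, between 13.26 and 13.41 in the 6 hearts. Cenpf itself read 8.75, 8.54 and 8.04 in wild-type against 6.35, 6.10 and 6.68 in knockout hearts, a difference of -2.07 (standard error, SE, 0.21; limma, adjusted p = 0.0286). The deleted part is not known, so this checks the labels only if the probe lies in it. The number of arrays limits the precision of every comparison below.

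Of the 6 receptors the relaxin receptor gene had the largest fitted difference. Rxfp1 had a mean 1.54 higher in the knockout hearts, while the other 5 genes had fitted differences under 0.2 in size on the log2 scale. The knockout mean was the higher one for 5 of 6 genes, against 47.9% of all probes. None of the 6 passed an adjusted p under 0.05 over the 21789 probes (limma), a threshold that 0.0275% of all probes passed. At an unadjusted p under 0.05 the count was 1 of 6, Rxfp1, against 9.9% of all probes in either direction and 4.66% with the knockout higher. The list was drawn up with earlier results in view, in which Rxfp1 had already been singled out for its difference, so that count is a description. The median fitted difference of the 6 genes was 0.13, against -0.0082 over all probes.

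Rxfp1 encodes the receptor for relaxin, a hormone known for remodelling connective tissue and for effects on vessels and the heart. By its probe (10498852), wild-type hearts gave 7.07, 6.56 and 6.11 and knockout hearts 7.49, 8.53 and 8.34. Every knockout heart lay above every wild-type heart, the nearest being wild-type replicate 1 and knockout replicate 1. Wild-type replicate 3 lay below the background level, and the wild-type mean of 6.58 ± 0.48 (SD, n = 3) was only 0.23 above it. The knockout mean was 8.12 ± 0.55 (SD, n = 3), which is 1.77 above the background level. The fitted difference of 1.54 had a standard error of 0.31 and a 95% interval of 0.84 to 2.24, a 2.91-fold ratio of the groups, and it did not pass the test over all probes (limma, adjusted p = 0.263).

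The spread of Rxfp1 within its groups was wide. Its residual standard deviation of 0.52 was at the 99.2 percentile of all probes, with a range of 0.96 among the wild-type and 1.04 among the knockout hearts. Leaving out 1 array at a time gave differences between 1.31 (wild-type replicate 3 left out) and 1.85 (knockout replicate 1 left out), with the same sign each time and 0 calls. Groups that did not overlap, as for Rxfp1, were found for 14.8% of all probes, with the knockout higher for 7.33% and lower for 7.47%.

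**Figure D1:**
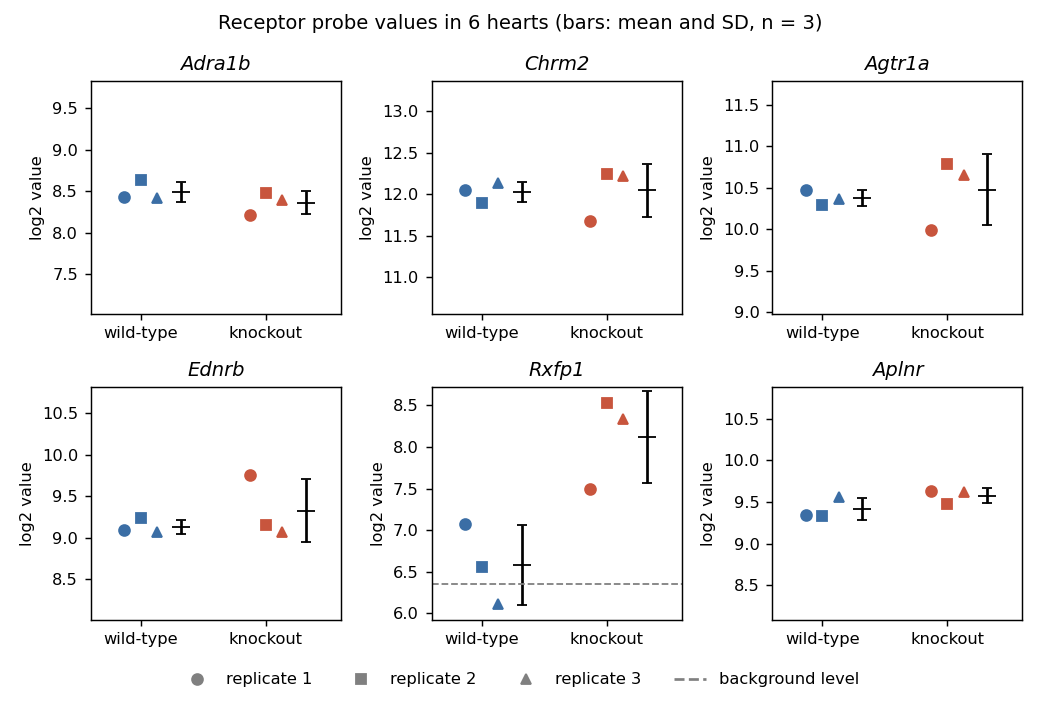
Log2 probe values (vertical axes, each spanning 2.8 log2 units) of the 6 receptor genes in wild-type hearts (blue) and Cenpf knockout hearts (red); symbols mark the replicate, black bars the mean and SD (n = 3), and the dashed line in the Rxfp1 panel the background level of 6.35. Rxfp1 has groups that do not overlap, while knockout replicate 1 lies lowest of the 6 hearts for Adra1b, Chrm2 and Agtr1a and highest for Ednrb and Aplnr.

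Adra1b encodes the alpha-1B adrenergic receptor, which answers noradrenaline and adrenaline through Gq. By its probe (10385353), wild-type hearts gave 8.42, 8.63 and 8.42 and knockout hearts 8.22, 8.48 and 8.39. The groups overlapped, since knockout replicate 2 lay above wild-type replicates 1 and 3. The means were 8.49 ± 0.12 and 8.36 ± 0.13 (SD, n = 3), and the difference of -0.13 had a 95% interval of -0.39 to 0.13 (limma, adjusted p = 0.723). It was the only one of the 6 genes with a lower knockout mean, and that sign held under every alternative run that could change it.

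Chrm2 encodes the M2 muscarinic receptor, through which the vagus nerve slows the heart. By its probe (10537298), wild-type hearts gave 12.05, 11.90 and 12.14 and knockout hearts 11.68, 12.24 and 12.21. Knockout replicates 2 and 3 lay above all wild-type hearts and knockout replicate 1 below all of them. The group means, 12.03 ± 0.12 and 12.05 ± 0.32 (SD, n = 3), differed by 0.019 with a 95% interval of -0.35 to 0.39 (limma, adjusted p = 0.981).

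Without knockout replicate 1 the Chrm2 difference was 0.20 (limma, adjusted p = 0.512), and its sign turned without knockout replicate 2, knockout replicate 3 or wild-type replicate 2, to values between -0.080 and -0.045.

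Agtr1a encodes the type 1a angiotensin II receptor, the main receptor of the renin-angiotensin system in mice, known for raising blood pressure and promoting growth and fibrosis. By its probe (10404376), wild-type hearts gave 10.48, 10.29 and 10.37 and knockout hearts 9.98, 10.78 and 10.66. As for Chrm2, knockout replicates 2 and 3 lay above all wild-type hearts and knockout replicate 1 below them. The means were 10.38 ± 0.10 and 10.47 ± 0.43 (SD, n = 3), a difference of 0.097 with a 95% interval of -0.35 to 0.55 (limma, adjusted p = 0.895). It was 0.34 without knockout replicate 1 (limma, adjusted p = 0.399) and -0.056 without knockout replicate 2.

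Ednrb encodes the type B endothelin receptor, which in vessels sits largely on endothelial cells and binds all endothelin peptides. By its probe (10422164), wild-type hearts gave 9.09, 9.23 and 9.06 and knockout hearts 9.76, 9.15 and 9.07. Knockout replicate 1 stood 0.53 above the mean of the 6 arrays, and the other 5 hearts lay within 0.17 of each other. The means of 9.13 ± 0.09 and 9.33 ± 0.38 (SD, n = 3) differed by 0.20 with a 95% interval of -0.21 to 0.61 (limma, adjusted p = 0.734). Without knockout replicate 1 the difference was -0.019 (limma, adjusted p = 0.956).

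Aplnr encodes the apelin receptor, prominent on endothelial cells and known for effects on vessel tone and contraction. By its probe (10473444), wild-type hearts gave 9.35, 9.34 and 9.57 and knockout hearts 9.63, 9.47 and 9.62. The groups overlapped only through wild-type replicate 3, which lay above knockout replicate 2. The means were 9.42 ± 0.13 and 9.57 ± 0.09 (SD, n = 3), and the difference of 0.16 had a 95% interval of -0.089 to 0.40 (limma, adjusted p = 0.648). Its sign held under every alternative run that could change it, between 0.12 and 0.23 with 1 array left out.

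**Figure D2:**
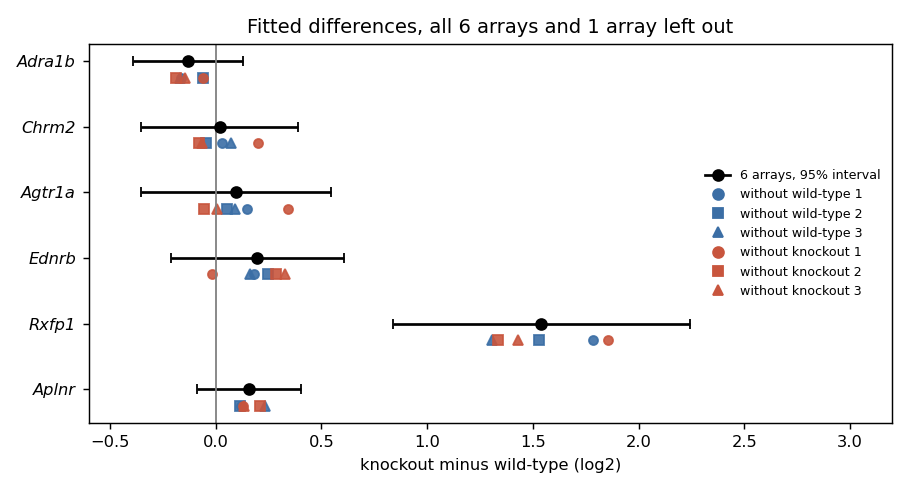
Knockout minus wild-type difference (horizontal axis, log2 scale) of each receptor gene, as the fit of all 6 arrays with its 95% interval (black) and, just below it, the fits with 1 array left out (blue for a wild-type and red for a knockout array, the symbol giving the replicate). The interval of Rxfp1, 0.84 to 2.24, lies above 0, and those of the other 5 genes span 0. The red circles without knockout replicate 1 stand farthest right for Adra1b, Chrm2, Agtr1a and Rxfp1 and farthest left for Ednrb.

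The SD among the knockout hearts was above that among the wild-type hearts in 5 of 6 genes, Aplnr being the exception. For Adra1b and Rxfp1 the SDs were close, at 0.13 against 0.12 and 0.55 against 0.48. The share of all probes with a larger knockout SD was not counted, so this is only a description. Knockout replicate 1 was the lowest of all 6 hearts for 3 of the 6 genes and the highest for 2, where over all probes it was the lowest for 18.3% and the highest for 18.8%. Without this heart the groups did not overlap for Chrm2, Agtr1a and Rxfp1, all higher in the knockout, where the smaller groups gave 31.2% of all probes. Without knockout replicate 2 this held for Adra1b, lower in the knockout, and for Rxfp1 and Aplnr, higher (23.2% of all probes), and without wild-type replicate 3 for Rxfp1 and Aplnr (34.2%). No receptor passed the adjusted threshold with any 1 array left out (limma).

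Some cell type marker lists also had knockout replicate 1 as their highest or lowest heart. In knockout replicate 1 the 8 fibroblast markers averaged 0.35 above their mean over the arrays, against -0.34 and -0.21 in knockout replicates 2 and 3. Wild-type hearts gave 0.12, 0.29 and -0.22 for them, so wild-type replicate 2 lay near knockout replicate 1. The 8 macrophage markers averaged 0.45 above, against -0.28 and -0.12, with -0.25, 0.019 and 0.20 in wild-type hearts. The 8 endothelial markers averaged 0.13, against 0.035 and -0.039, with -0.020, -0.078 and -0.024 in wild-type hearts. Smooth muscle and pericyte markers, at -0.081 in knockout replicate 1, lay between knockout replicates 2 and 3. The 6 ventricular muscle markers averaged -0.14 in knockout replicate 1, against 0.099 and 0.066. Chrm2 and Agtr1a were low and Ednrb high in the same heart, at -0.36, -0.44 and 0.53 from their means. Aplnr was 0.13 above its mean both there and in knockout replicate 3, where the fibroblast, macrophage and endothelial markers averaged below their means. The part of cell composition in these values was not tested. In RNA of heart tissue, fewer cells of a type and less RNA per cell cannot be told apart.

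Among the knockout hearts Rxfp1 ran with the mean of the ventricular muscle markers, as did Adra1b, Chrm2 and Agtr1a. Each was lowest in knockout replicate 1 and highest in knockout replicate 2. The share of all probes with this order was not counted, so this is only a description. Single markers did not all share that order. Irx4 and Hey2 had ranges of 0.61 and 0.66 among the knockout hearts, against 0.022 to 0.16 for Myl2, Myl3, Tnni3 and Ckm. Myl3 and Tnni3 were not lowest in knockout replicate 1. Among the wild-type hearts Rxfp1 did not run with the marker mean. There Rxfp1 was highest in wild-type replicate 1, where the ventricular markers were lowest at -0.048, against 0.043 and -0.021 in wild-type replicates 2 and 3. Wild-type replicate 3, the lowest heart of all for Rxfp1, had fibroblast markers at -0.22. Knockout replicate 2, the highest heart of all for Rxfp1, had them at -0.335. Atrial muscle markers averaged -0.13, -0.25 and 0.053 in wild-type and 0.32, 0.043 and -0.028 in knockout hearts, with 5 of 7 above the background level. Sln and Bmp10, which mark atrial muscle, had means below that level over the 6 hearts, with knockout means of 6.33 and 4.82. Of the 7 atrial markers 5 had a higher and 2 a lower knockout mean. Groups did not overlap for 1 of them, Myl7, or 14.3% of the list against 14.8% of all probes. Myl7, the atrial light chain, read 8.37, 8.46 and 8.35 in knockout against 7.91, 7.46 and 8.23 in wild-type hearts. Its difference was 0.53 (limma, adjusted p = 0.454), or 0.33 without wild-type replicate 2. Whether the share of atrial tissue differed was not tested. Of the neuron markers, 6 were measured and 4 lay above the background level, their array means ranging from -0.14 to 0.12 about their own mean, and the 3 Schwann cell markers, with 2 above it, ranged from -0.15 to 0.19.

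**Figure D3:**
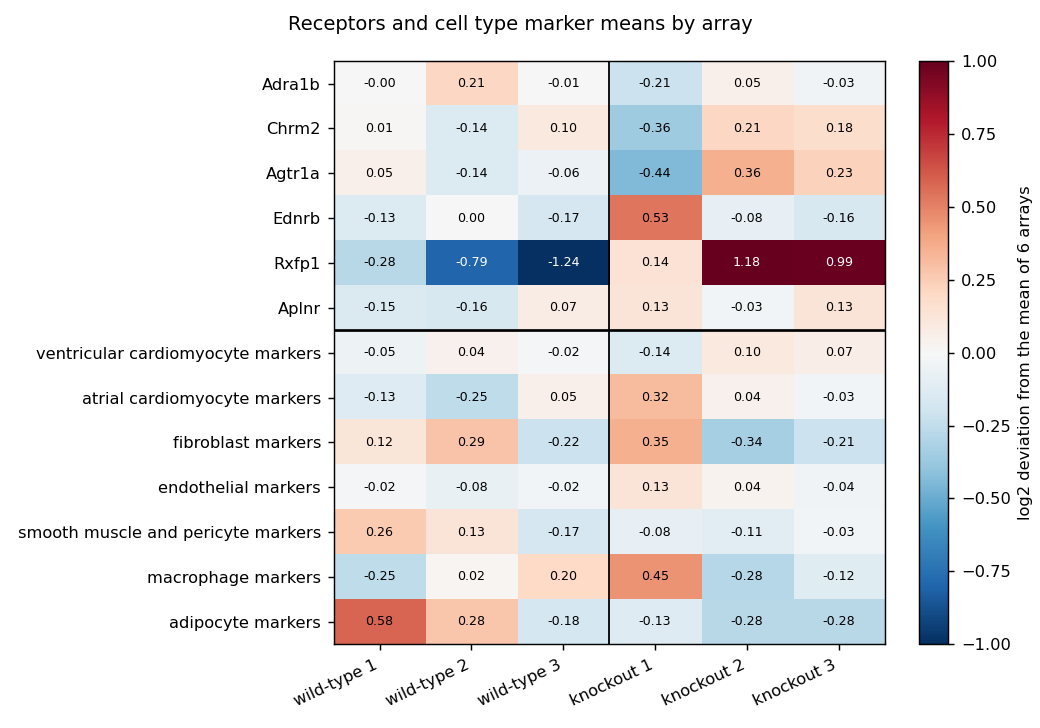
Deviation from the mean of the 6 arrays, in log2 units, for each receptor gene (above the line) and for the mean of each cell type marker list (below it), with 1 column per heart; red is higher and blue lower, and colours saturate at -1 and 1. Knockout replicate 1 is blue for Adra1b, Chrm2, Agtr1a and the ventricular markers and red for Ednrb and the fibroblast and macrophage markers, while Rxfp1 is blue in the 3 wild-type hearts and red in the 3 knockout hearts.

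The genes that make the ligands of these receptors gave no call. Of 27 listed genes for ligands, their synthesis and their breakdown 23 were measured and 19 lay above the background level, 9 with a higher and 14 with a lower knockout mean. With array medians subtracted, cyclic loess or quantile normalization 12 of the 23 were higher. Their median difference was -0.017. The ligand genes are named here for their role, after their values had been seen. Edn1, the endothelin gene of the vessel lining, averaged 7.69 ± 0.06 in wild-type against 7.75 ± 0.12 in knockout hearts (SD, n = 3). Apln, which encodes apelin, read 8.53 ± 0.29 and 8.76 ± 0.17 (SD, n = 3), and Agt, the angiotensin precursor, 7.39 ± 0.12 and 7.34 ± 0.21 (SD, n = 3). Rln1, a relaxin gene, lay little above the background level at 6.53 ± 0.12 and 6.43 ± 0.06 (SD, n = 3). The adjusted p of these 4 genes lay between 0.667 and 0.935 (limma).

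The ligand-side genes with the smallest p were Ddc, Ace and Bche. Ddc, the decarboxylase that makes dopamine on the way to noradrenaline, read 8.33, 7.97 and 6.37 in wild-type against 6.11, 6.35 and 6.39 in knockout hearts. Bche, which encodes a cholinesterase, read 9.81, 9.98 and 8.71 against 8.66, 8.90 and 8.97. In both, wild-type replicate 3 lay among the knockout hearts. The differences were -1.28 for Ddc (limma, adjusted p = 0.454) and -0.66 for Bche (limma, adjusted p = 0.514), the second -0.42 without wild-type replicate 2. Ace, the angiotensin-converting enzyme that yields the ligand of Agtr1a, read 9.23, 9.66 and 10.37 against 10.77, 10.25 and 10.35, a difference of 0.70 (limma, adjusted p = 0.472), or 0.44 without wild-type replicate 1.

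Leaving out wild-type replicate 3 moved several of these values. Without it Ddc, with its knockout mean below the background level, fell by 1.87 (SE 0.15, limma, adjusted p = 0.00508). Bche then fell by 1.06 (SE 0.13, limma, adjusted p = 0.0212). Edn3, an endothelin gene, read 6.76, 6.83 and 8.15 in wild-type against 7.44, 7.64 and 7.40 in knockout hearts, so that wild-type replicate 3 was the highest of all. Its difference was 0.25 with all arrays (limma, adjusted p = 0.823), and with wild-type replicate 1, 2 or 3 left out it was 0.0050, 0.036 and 0.70, the last of which was called (limma, adjusted p = 0.0427). That fit called 1.34% of all probes, against 0.0275% with all arrays, and it called none of the 6 receptors. Some marker lists set the same heart beside the knockout hearts, but not all did. For the ventricular markers it lay at -0.021, between wild-type replicates 1 and 2 at -0.048 and 0.043. For the macrophage markers it lay at 0.20, against 0.45, -0.28 and -0.12 in the knockout hearts. The adipocyte markers averaged 0.58, 0.28 and -0.18 in wild-type against -0.13, -0.28 and -0.28 in knockout hearts, with 3 of the 5 measured above the background level. The 9 smooth muscle and pericyte markers averaged 0.26, 0.13 and -0.17 against -0.081, -0.11 and -0.030. Acta2, smooth muscle actin, read 12.96, 12.76 and 11.07 against 11.07, 10.66 and 11.20. The list did not move as a whole: 4 of the 9 had a higher and 5 a lower knockout mean, with a median difference of -0.022. Without wild-type replicate 3 the difference was -1.88 for Acta2 but 0.35 for Myh11, another marker of the list. The part of these cells in the values of Ddc, Bche and the other genes that wild-type replicate 3 moved was not tested.

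Related receptors outside the 9 were mostly near or below the background level. Of 16 listed, 10 were measured and 5 lay above it, and 8 of the 10 had a lower knockout mean, with a median difference of -0.17. Of the 5 above the background level 2 were higher and 3 lower. Chrm3, the M3 muscarinic receptor, read 7.93, 8.10 and 7.35 in wild-type against 7.34, 7.35 and 7.37 in knockout hearts, a difference of -0.44 (limma, adjusted p = 0.490). It too had wild-type replicate 3 beside the knockout hearts, and without that heart it fell by 0.67 (limma, adjusted p = 0.0388), while without wild-type replicate 2 the difference was -0.29. Rxfp2, the receptor of an insulin-like peptide related to relaxin, and Mas1, the receptor of a shortened angiotensin, lay below the background level in all 6 hearts and get no fold.

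Genes that switch receptors off gave no call either. Of 13 listed receptor kinases, arrestins, regulators of G protein signalling (RGS) and an angiotensin receptor partner 12 were measured, 4 with a higher and 8 with a lower knockout mean, and their median difference was -0.10. Rgs6, a brake on muscarinic signalling in the heart, read 8.10, 8.11 and 6.53 in wild-type against 6.53, 6.78 and 6.39 in knockout hearts. Its difference was -1.01 (limma, adjusted p = 0.472), or -1.54 without wild-type replicate 3 (limma, adjusted p = 0.00561). Grk5, a kinase that desensitises receptors, differed by -0.34 and did not overlap between the groups, at 8.66, 8.72 and 9.19 against 8.56, 8.49 and 8.49. Without wild-type replicate 3 that difference was -0.18. Rgs2, which acts mainly on Gq, differed by -0.42, or by -0.23 without knockout replicate 1, and both genes had an adjusted p of 0.500 (limma).

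G protein subunit genes were evenly split, with 9 of 18 measured members higher and 9 lower and a median difference of -0.0061. Gna12, an alpha subunit gene, read 11.17, 11.14 and 11.36 in wild-type against 11.45, 11.44 and 11.60 in knockout hearts, a difference of 0.27 (limma, adjusted p = 0.476). The gamma subunit genes Gng11 and Gng2 differed by -0.40 and -0.33 (limma, adjusted p = 0.457 and 0.509), the second by -0.22 without knockout replicate 3.

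In the cyclic AMP pathway 31 of 33 genes were measured, of which 20 had a higher knockout mean, with a median difference of 0.040. At an unadjusted p under 0.05 there were 5 higher and 1 lower, 19.4% of the list against 9.9% of all probes, and none passed the adjusted threshold. Popdc3, which encodes a membrane protein of the cyclic AMP-binding Popeye family, read 8.94, 9.21 and 9.32 in wild-type against 9.57, 9.79 and 9.88 in knockout hearts, a difference of 0.59 (SE 0.13; limma, adjusted p = 0.368). Prkar1a, a regulatory subunit of protein kinase A, read 11.48, 11.47 and 11.69 against 11.87, 11.85 and 11.92, a difference of 0.33 (limma, adjusted p = 0.408). Pde8a, a phosphodiesterase that degrades cyclic AMP, differed by 0.38 (limma, adjusted p = 0.454). Groups did not overlap for 6 higher genes, these 3 among them, and 1 lower gene of the list, 22.6% against 14.8% of all probes.

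In the Gq pathway 22 of 24 genes were measured, 14 of them with a higher knockout mean, with a median difference of 0.044. The unadjusted p was under 0.05 for 4, all higher, or 18.2% of the list against 9.9% of all probes in either direction and 4.66% higher, and none passed adjusted. Plcb1, a phospholipase C activated by Gq, read 6.98, 7.20 and 7.38 in wild-type against 7.61, 7.64 and 7.62 in knockout hearts, a difference of 0.43 (SE 0.12; limma, adjusted p = 0.391). Rcan1, a target and regulator of calcineurin, differed by 0.55 (limma, adjusted p = 0.469), with wild-type replicate 3 at 10.67 beside the knockout values of 11.08, 10.58 and 10.67. Trpc6, a cation channel opened downstream of phospholipase C, lay below the background level in the 3 wild-type hearts and in knockout replicate 3, and both group means lay below it, so no fold is given.

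Among the channels and phosphoproteins on which these receptors act, 14 of 15 genes were measured, 6 with a higher and 8 with a lower knockout mean, and their median difference was -0.044. Kcnj5, a subunit of the potassium channel that M2 receptors open, read 10.03, 9.94 and 9.82 in wild-type against 9.02, 9.46 and 9.77 in knockout hearts. The groups did not overlap, and the difference was -0.51 (limma, adjusted p = 0.457), or -0.32 without knockout replicate 1. Ppp1r1a, an inhibitor of protein phosphatase 1 that protein kinase A activates, read 7.63, 7.47 and 7.73 against 7.35, 7.19 and 7.18, a difference of -0.37 (limma, adjusted p = 0.393). Hcn2, a pacemaker channel gene, differed by 0.30 (limma, adjusted p = 0.570), or by 0.48 without knockout replicate 1 and 0.19 without knockout replicate 3. Kcne1, an accessory subunit of a potassium channel that shortens the action potential, was called without wild-type replicate 3, where it fell by 1.31 (limma, adjusted p = 0.0311). With all arrays its difference was -0.66 (limma, adjusted p = 0.659), and with wild-type replicate 1 or 2 left out it was -0.39 and -0.29.

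Over all 7 lists around the receptors, 130 of 147 genes were measured, 64 with a higher and 66 with a lower knockout mean, with a median of -0.0017. None was called with all arrays (limma), against 0.0275% of all probes. At an unadjusted p under 0.05 there were 11 higher and 9 lower, 15.4% of the 130 against 9.9% of all probes. Groups did not overlap for 11 higher and 6 lower genes, 13.1% of the 130 against 14.8% of all probes. By list the unadjusted share was 10% for related receptors, 8.7% for ligand-side genes and 25% for receptor kinases, arrestins and RGS genes. It was 11.1% for G protein subunits, 19.4% for the cyclic AMP pathway, 18.2% for the Gq pathway and 14.3% for effectors. In the same order, groups did not overlap for 0%, 4.35%, 16.7%, 16.7%, 22.6%, 9.09% and 14.3%.

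**Figure D4:**
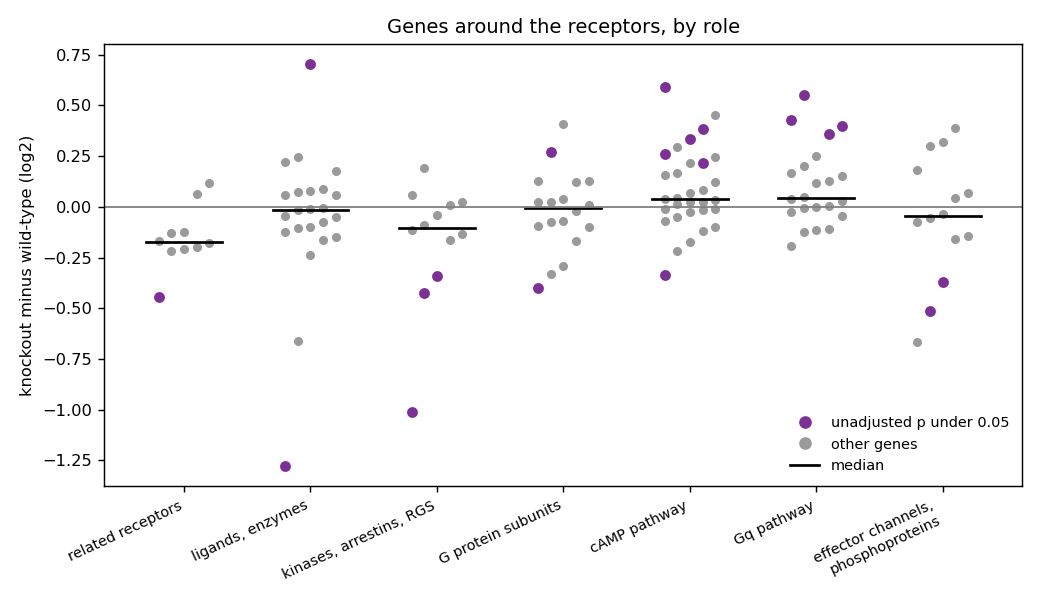
Knockout minus wild-type difference (vertical axis, log2 scale) of the measured genes of the 7 lists around the receptors, 1 point per gene, spread sideways for legibility; purple points have an unadjusted p under 0.05 (limma), black lines are list medians. List medians lie between -0.17 for related receptors and 0.044 for the Gq pathway, and the lowest points are Ddc at -1.28 and Rgs6 at -1.01.

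The genes whose values ran most like each receptor over the 6 hearts were found by Pearson's r among 13306 other genes above the background level, as a description. For Rxfp1 these were Pex6, a peroxisome assembly factor, Dlc1 and Gpc2, a cell-surface proteoglycan, with r of 0.996, 0.990 and 0.988 over 6 arrays. All 3 moved far less than Rxfp1, by 0.20, 0.22 and 0.33 (limma, adjusted p = 0.529, 0.524 and 0.457). For Ednrb they were Pi16, a marker of a fibroblast subset, Adcy4, an adenylyl cyclase, and Timp2, a metalloproteinase inhibitor, each highest in knockout replicate 1. Pi16 read 10.41 in that heart and between 8.94 and 9.44 in the other 5.

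For Agtr1a they were Zfp46, Cdh13 and Pex26, and for Chrm2 Ttc17, Phtf2 and Herc1, each lowest in knockout replicate 1. Cdh13, a cadherin anchored without a cytoplasmic tail, read 10.86, 10.78 and 10.84 in wild-type against 10.62, 11.01 and 10.96 in knockout hearts. For Adra1b they were Hdc, the enzyme that makes histamine, Rsbn1l and Dcps, and for Aplnr Cyria, Serf2 and Ghdc. With 6 arrays high values of r are common: the gene ranked 100 still had r between 0.879 for Adra1b and 0.952 for Agtr1a.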

How the data were processed

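Hearts of 6 mice were measured on Affymetrix mouse gene arrays. The authors deposited log2 values, for which the submitters' processing notes name RMA and Partek 6.6; the settings and a genome build are not stated in the sources used here. Array medians lay between 6.92 and 6.97, so the values were used as deposited, with no pseudocount and no filter on dim probes. The platform annotation named the probes: 21789 had 1 gene symbol, 1621 several, and 12146 were unnamed here. Names were looked up in RefSeq's table of GRCm38.p6, and for each receptor 19 or 20 of the 20 nearest named probes in probe order lay on its own chromosome. The comparison used limma 3.58.1 under R 4.3.3 (lmFit and eBayes, two-sided, Benjamini-Hochberg over the 21789 probes), tested on simulated data. The receptors and lists were chosen with earlier results of these data known. Named genes are the receptors, the 3 of smallest p in each list, any called gene, the 3 most alike by Pearson's r, and Cenpf. Edn1, Apln, Agt, Rln1, Edn3, Kcne1 and the cell type markers were named in addition, after their values were seen. Within-array differences of receptor pairs were planned, but each pair holds a receptor not analysed here. Other normalizations, a filter on dim probes, all probes, averaged probes per gene, other variance models, the replicate block and each array left out were tried. Figures were drawn with matplotlib 3.10.9.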

Additional observations from a re-analysis of the deposited data

How the results depend on the processing

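Of the 6 receptors none passed the adjusted threshold under any alternative of the fit run. With the fit reported, none passed at an adjusted p under 0.1 and 1 at an unadjusted p under 0.05; with array weights Rxfp1 had an adjusted p of 0.0753. Rxfp1, Aplnr and Adra1b kept their sign in all 16 alternatives, Rxfp1 with differences of 1.31 to 1.85 and adjusted p of 0.0753 to 0.695. Not all of these could turn a sign. All probes, the filter on dim probes, averaged probes, the plain and trended variance models and the replicate block leave a receptor's difference unchanged. Only other normalizations, array weights or an array left out could change it. With 1 array left out the differences ranged from -0.19 to -0.058 for Adra1b, from -0.080 to 0.20 for Chrm2, from -0.056 to 0.34 for Agtr1a, from -0.019 to 0.33 for Ednrb and from 0.12 to 0.23 for Aplnr, so the signs of Chrm2, Agtr1a and Ednrb turned. For Chrm2 they turned to -0.080, -0.065 and -0.045 without knockout replicate 2, knockout replicate 3 and wild-type replicate 2. The receptors with groups that did not overlap numbered 1 to 3. With all arrays there was 1, against 14.8% of all probes. Without knockout replicate 1, knockout replicate 2 or wild-type replicate 3 there were 3, 3 and 2, against 31.2%, 23.2% and 34.2% of all probes. Calls ranged from 0 to 1 among related receptors and 0 to 3 among ligand-side genes. They ranged from 0 to 1 among receptor kinases, arrestins and RGS genes and 0 to 1 among effectors. All of these calls came without wild-type replicate 3, a fit that called 1.34% of all probes. The cause was not tested. No scaling moved the median of all probes by more than 0.023. Same-numbered hearts did not pair, with correlations of -0.11, -0.16 and -0.003, and with the replicate number as a block the differences were unchanged (Rxfp1 1.54, adjusted p = 0.282) and 0 receptors were called. Near the background level, where wild-type Rxfp1 lay, an array value can understate a change. Whether it did so for Rxfp1 was not tested.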
